A study of Solanum lycopersicum with 86 samples.

Results

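The gibberellin 20-oxidases and 3-oxidases of tomato (Solanum lycopersicum) carry out the last steps that lead to active gibberellin, a hormone that promotes stem elongation. The family was chosen by a list of 6 Solyc identifiers, and all 6 were rows of the table of 23050 genes: 4 20-oxidases and 2 3-oxidases. The list has no threshold and takes the family members whatever their values, but it was drawn up with earlier far-red results of these data known. Among them was the result of GA20ox2 (Solyc06g035530), so the difference of that gene between far-red and white light is given as a description without a test. The other members are GA20ox1 (Solyc03g006880), GA20ox3 (Solyc11g072310), GA20ox4 (Solyc01g093980), GA3ox1 (Solyc06g066820) and GA3ox2 (Solyc03g119910).

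Gibberellin 20-oxidases remove a carbon from early gibberellins in several oxidation steps and so make the direct precursors of the active hormones. Gibberellin 3-oxidases add the hydroxyl group that makes these precursors active, and other enzymes, the 2-oxidases, inactivate them. Active gibberellin binds the receptor GID1 and leads to the breakdown of DELLA proteins, which restrain growth. Synthesis genes of this kind are also under feedback, so that a plant with more active hormone often makes less of some of their transcripts. In many plants, light with a low ratio of red to far-red, as under a canopy, is a signal that makes stems elongate.

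Messenger RNA was sequenced from the first internode (the stem piece above the cotyledons) or from the pith in its centre, in wild-type plants of the cultivars Moneymaker and M82. Seeds germinated for a week and the seedlings then grew in pots for 7 days in white light, at 20 °C, 70% humidity and 16 h of light per day. After that, plants stayed in white light (WL, 200 PAR) or received the same light with added far-red (FR), which brought the red to far-red ratio to 0.21. Internodes were taken 6, 24, 30 and 48 h after the start and pith at 30 and 48 h, which gave 24 groups of 2 to 6 libraries and 86 libraries in all. Whole internodes contain their pith.

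For Moneymaker there were 19 internode libraries under FR and 13 under WL, and 8 and 6 of pith. For M82 there were 11 and 15 of internodes, and 5 and 9 of pith. Values are read counts scaled by a factor for each library, called scaled reads here. Depth ran from 0.769 to 22.1 M reads with a median of 2.98 M, so that 1 read was worth 0.0604 to 1.33 scaled reads, and a value of 0 allows up to 0.181 to 3.98 scaled reads (3 reads, counting error only) depending on the library. By genes that differ between the cultivars or between times in the other libraries, 12 libraries were at odds with the cultivar or the time on their label. They stayed in, and results were also computed without them. Of the 12, 6 are labelled M82 WL and express Moneymaker genes, and 3 are labelled Moneymaker and express M82 genes. By a score of genes that respond to FR, 2 libraries lay nearer the other light: the M82 FR internode at 24 h with replicate number 3, and the M82 WL internode at 30 h with replicate number 1. The table pairs no identifiers with names, so the tissues were not checked against marker genes.

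GA20ox2 was much higher under FR than under WL. In Moneymaker internodes at 6 h it stood at 60.7, 52.9, 69.7, 70.7 and 61.7 scaled reads under FR and at 3.59 and 3.26 under WL. In M82 internodes at 6 h it stood at 82.7, 99.6 and 114 under FR and at 8.37, 3.15, 4.13 and 2.98 under WL. Every FR library at 6 h was thus far above every WL library, and these FR libraries were the highest of all 86 for this gene.

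At 24 h in Moneymaker internodes, GA20ox2 had 23.4, 29.5, 19.6, 16.7 and 13.9 scaled reads under FR and 0.286, 1.34 and 0 under WL. At 30 h it had 29.3, 23.5 and 26.8 under FR and 1.92, 4.80, 5.94 and 0.553 under WL. At 48 h the FR libraries lay between 12.2 and 24.1 with a median of 20.8, and the WL libraries were at 7.36, 0, 0.509 and 0. The lights did not overlap at any time, and the level of 7.36 was in a library at odds with its time label.

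In M82 internodes at 24 h, GA20ox2 was at 38.1 scaled reads in the first FR library and at 0 in the other, with WL at 0.387 and 0.317. At 30 h it had 39.2, 33.6 and 38.6 under FR, and 26.4, 3.09, 0, 3.00 and 3.05 under WL. At 48 h it had 24.6, 17.3 and 17.9 under FR, and 0.669, 0, 0.340 and 1.14 under WL. The lights overlapped only at 24 h, through the FR library at 0 (3 reads there would be worth 2.13), and the high WL value of 26.4 at 30 h stood apart from its group. These are the same libraries that lay nearer the other light by the score of FR genes.

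In Moneymaker pith, GA20ox2 was at 9.07, 19.9, 12.3 and 13.1 scaled reads under FR at 30 h, and at 2.28, 9.04 and 1.51 under WL. At 48 h it was at 9.69, 35.5, 13 and 10.9 under FR, and at 0.715, 0 and 1.41 under WL. In M82 pith it was at 37.7 and 30.7 under FR at 30 h with 2.83, 2.52, 0.599 and 0 under WL, and at 14.5, 15.2 and 24.5 at 48 h with 3.41, 0, 0, 1.47 and 2.73 under WL. FR was above WL in pith of both cultivars at both times, but in Moneymaker at 30 h the lowest FR library (9.07) and the highest WL library (9.04) nearly met.

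**Figure D1:**
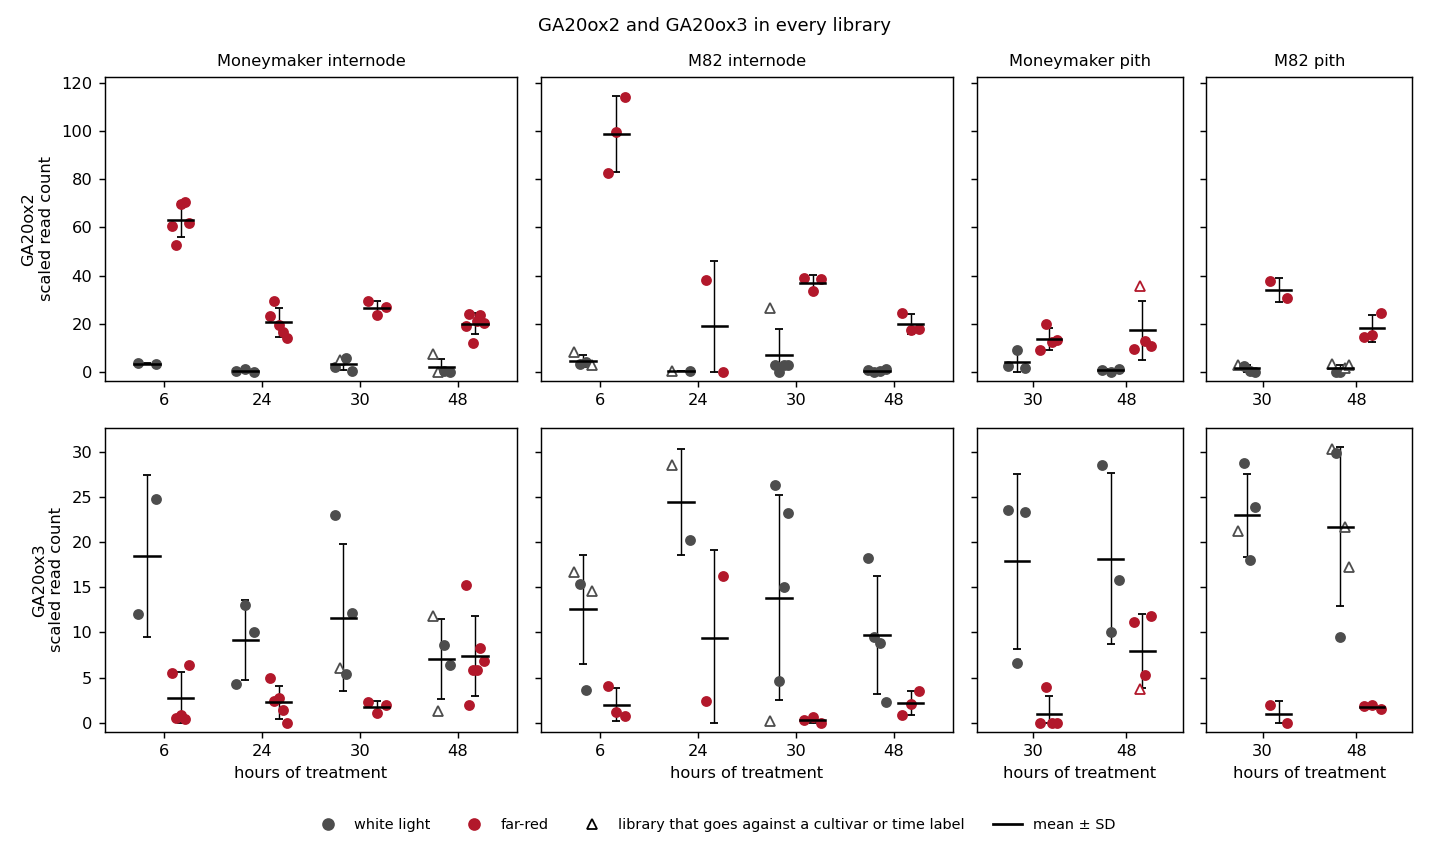
Scaled reads of GA20ox2 (upper row) and GA20ox3 (lower row) in all 86 libraries, by hours of treatment in each cultivar and tissue; black bars are the mean ± SD of a group (lower ends cut at 0), and open triangles are the 12 libraries at odds with their labels. The FR group means of GA20ox2 lie at 13.6 or more and the WL means at 7.10 or less, while most FR points of GA20ox3 lie below the WL points.

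Over the 24 groups, the 12 FR means of GA20ox2 ran from 98.8 ± 15.7 (SD, n = 3, M82 internode at 6 h) down to 13.6 ± 4.56 (SD, n = 4, Moneymaker pith at 30 h). The 12 WL means followed, from 7.10 ± 10.8 (SD, n = 5, M82 internode at 30 h) down to 0.352 ± 0.0497 (SD, n = 2, M82 internode at 24 h). After Moneymaker at 6 h (63.1 ± 7.32, SD, n = 5), the FR means from 37.1 to 13.6 formed a series in which neighbours did not differ beyond their spread (the ranges of mean ± SD met). Every FR library was above every WL library in 11 of the 12 comparisons of a cultivar, tissue and time, where 4.62% of all such gene and comparison pairs had FR above WL in this way.

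On the log2(scaled reads + 1) scale used for all fold changes, GA20ox2 was higher under FR by 3.52 ± 0.33 (SE) in Moneymaker internodes and by 2.50 ± 0.48 in Moneymaker pith. It was higher by 3.33 ± 0.36 in M82 internodes and by 3.58 ± 0.50 in M82 pith. These differences are 11.4-fold, 5.67-fold, 10.1-fold and 12-fold. At single times they lay between 1.69 ± 0.67 (Moneymaker pith at 30 h) and 4.22 ± 0.67 (M82 internode at 6 h). Without the M82 FR library at 24 h that stood at 0, the M82 internode difference was 3.99, without the other FR library at 24 h it was 2.67, and without the M82 WL library at 26.4 it was 3.49. Over the 9 alternatives of the processing, the differences ran from 3.52 to 4.29 and from 2.30 to 3.15 in Moneymaker internodes and pith, and from 3.33 to 4.41 and from 3.53 to 4.50 in those of M82.

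GA20ox3, another 20-oxidase, was lower under FR than under WL in internodes and pith of Moneymaker and M82. In M82 pith at 30 h it was at 2.01 and 0 scaled reads under FR and at 21.2, 28.8, 18.0 and 23.9 under WL. At 48 h it was at 1.82, 1.98 and 1.53 under FR and at 30.3, 29.9, 9.46, 21.7 and 17.3 under WL. The 5 FR libraries of M82 pith lay at 2.01 or below and the 9 WL libraries at 9.46 or above, with no overlap.

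In Moneymaker pith at 30 h, GA20ox3 had 0, 3.98, 0 and 0 scaled reads under FR and 23.6, 6.63 and 23.4 under WL. At 48 h it had 11.2, 3.68, 5.29 and 11.8 under FR and 28.6, 10.1 and 15.8 under WL. The lights were apart at 30 h and overlapped at 48 h, where the FR libraries were higher than at 30 h except for the library at 3.68.

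In Moneymaker internodes at 6 h, GA20ox3 had 5.48, 0.477, 0.845, 0.356 and 6.38 scaled reads under FR and 12.1 and 24.8 under WL. At 24 h it had 4.92, 2.39, 2.72, 1.36 and 0 under FR and 4.29, 13.1 and 10.1 under WL. At 30 h it had 2.30, 1.09 and 1.94 under FR and 23.0, 6.01, 5.38 and 12.2 under WL. FR lay wholly below WL at 6 and 30 h, and at 24 h only the FR library at 4.92 crossed the lowest WL library.

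At 48 h the Moneymaker internode libraries of GA20ox3 lay between 1.93 and 15.3 scaled reads under FR with a median of 6.33, and at 11.8, 1.32, 8.65 and 6.34 under WL. The lights overlapped throughout at that time, with a log2 difference of 0.13 ± 0.60.

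In M82 internodes at 6 h, GA20ox3 had 4.07, 1.14 and 0.788 scaled reads under FR and 16.7, 15.4, 3.59 and 14.6 under WL. At 24 h it had 2.46 and 16.3 under FR and 28.6 and 20.3 under WL. At 30 h it had 0.353, 0.579 and 0 under FR and 0.231, 26.3, 4.57, 15.0 and 23.2 under WL. FR was below WL at 24 h, the lights overlapped slightly at 6 h through the WL library at 3.59, and at 30 h only the WL library at 0.231 lay within the FR range. That library was the WL library high in GA20ox2, and the FR library at 16.3 was the FR library with no reads of GA20ox2.

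At 48 h the M82 internodes had 0.862, 2.10 and 3.53 scaled reads of GA20ox3 under FR and 18.3, 9.52, 8.84 and 2.27 under WL, so that only the lowest WL library lay within the FR range. Over the 12 comparisons of a cultivar, tissue and time, every FR library was below every WL library in 6 and the lights overlapped in 6. Over all genes and comparisons, 4.98% of pairs had FR below WL in this way.

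In the fit of all genes with limma (Benjamini-Hochberg adjusted p below 0.05 for a call), GA20ox3 was lower under FR by a log2 difference of -1.58 ± 0.35 in Moneymaker internodes (2.99-fold, adjusted p = 0.0034). The difference was -2.29 ± 0.50 in Moneymaker pith (4.88-fold, adjusted p = 0.0081). It was -2.08 ± 0.38 in M82 internodes (4.23-fold, adjusted p = 3.1e-04) and -3.35 ± 0.52 in M82 pith (10.2-fold, adjusted p = 1.5e-05). Of the 3 tested members other than GA20ox2, GA20ox3 alone was called in each of these comparisons, in which 1.59%, 0.504%, 0.715% and 3.71% of the 19029 genes tested were called. As the family was proposed with far-red results known, these p-values are not independent of that choice. Leaving out replicate number 2 of Moneymaker WL pith at 48 h, which held the highest value of its group, gave a Moneymaker pith difference of -2.10 with a limma adjusted p of 0.052. The replicates are labelled as biological, and the same number marks plants of the same batch.

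**Figure D2:**
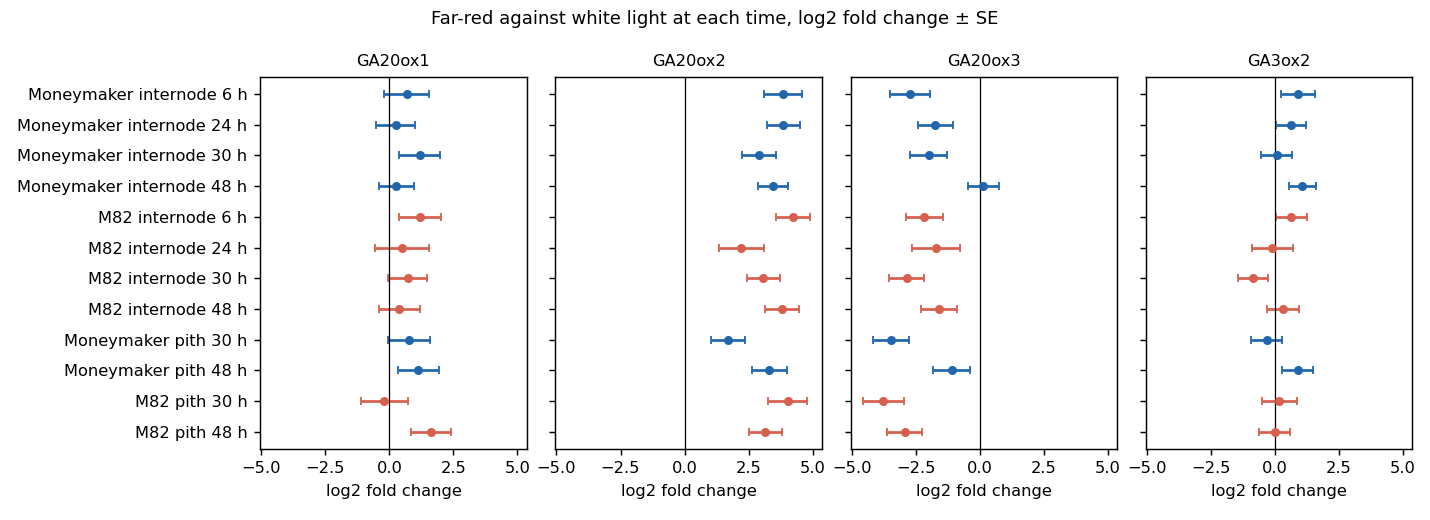
Log2 fold change of FR against WL ± SE for the 4 tested members at each time, in 12 comparisons of cultivar, tissue and time (blue Moneymaker, red M82; the line marks no difference). GA20ox2 lies to the right of the line in all 12, and GA20ox3 to the left in 11, with 0.13 ± 0.60 in Moneymaker internodes at 48 h. GA20ox1 lies to the right in 11, up to 1.63, with -0.19 ± 0.91 in M82 pith at 30 h. GA3ox2 lies on both sides of the line, down to -0.85.

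The opposite movement of these 20-oxidases can be seen within libraries as log2(GA20ox2 + 1) minus log2(GA20ox3 + 1). This difference is not corrected for gene length, so its 0 marks equal scaled reads and not equal levels per length. Among the 43 FR libraries its lowest value was -4.11, its median 3.20 and its highest 6.01. Among the 43 WL libraries the lowest was -4.95, the median -2.74 and the highest 4.47. Below 0 were 3 FR libraries and above 0 were 4 WL libraries, so the lights overlapped. The lowest FR value belonged to the M82 internode at 24 h with replicate number 3, and the highest WL value to the M82 internode at 30 h with replicate number 1. As GA20ox2 entered with its FR result known, this difference is a description. Without the first of these libraries the M82 internode difference of GA20ox3 between the lights was -2.37 (limma adjusted p = 8.2e-05), and without the second -2.26 (limma adjusted p = 8.8e-06). On a scale where 1 is the median of libraries at 6 and 30 h and 0 that of libraries at 24 and 48 h, the time score was 0.02 in the FR library labelled 24 h and 0.96 in the WL library labelled 30 h, each as labelled. On a scale from 0 (Moneymaker) to 1 (M82), their cultivar scores were 0.94 and -0.01, so that the WL library was at odds with its cultivar label.

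**Figure D3:**
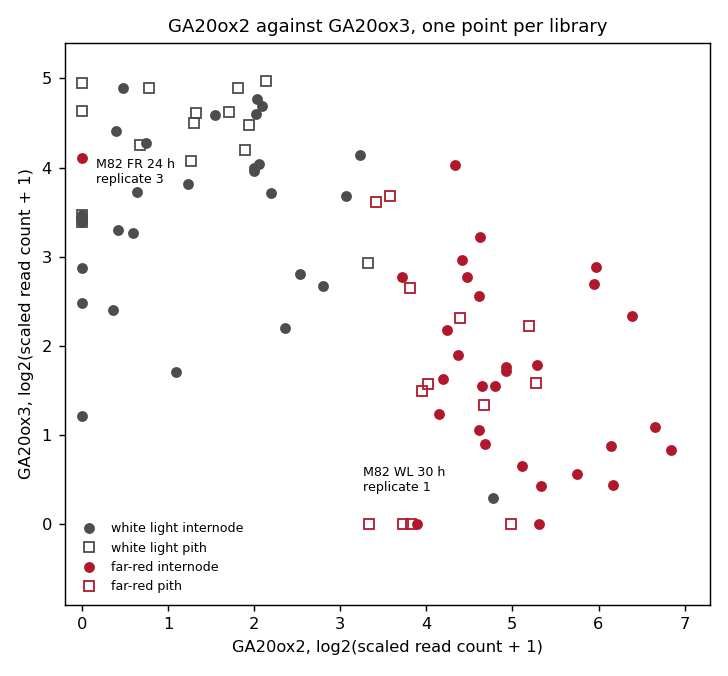
Log2(scaled reads + 1) of GA20ox3 against that of GA20ox2, with a point for each of the 86 libraries (grey WL, red FR; filled circles internode, open squares pith). Most FR libraries lie to the lower right and most WL libraries to the upper left, with some from both lights between them. The labelled M82 libraries lie among those of the other light, at 0 and 16.3 scaled reads (FR) and at 26.4 and 0.231 (WL) of GA20ox2 and GA20ox3.

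The FR differences were then compared between cultivars, tissues and times of day. In Moneymaker the FR difference of GA20ox3 at 30 and 48 h was more negative in pith than in internodes by a limma interaction of -1.35 (95% interval -2.71 to 0.01, adjusted p = 1.00). In M82 the same interaction was -1.12 (95% interval -2.55 to 0.31, adjusted p = 0.62). Between cultivars, the FR difference of GA20ox3 differed by -0.50 in internodes (95% interval -1.53 to 0.52) and by -1.06 in pith (95% interval -2.51 to 0.38). For GA20ox2 the cultivars differed by -0.19 (95% interval -1.16 to 0.79) in internodes and by 1.08 (95% interval -0.29 to 2.46) in pith. None of the 4 tested members passed limma in any of the 6 comparisons of FR differences, in which 0% of all genes were called in 5 and 0.00526% in the other. At an unadjusted p below 0.05 there was 1 member, GA20ox3 between times of day in Moneymaker internodes (-1.55 ± 0.69), where 413 of the 19029 genes had such a p, and edgeR and DESeq2 each called 0. Over these 6 comparisons GA20ox1 lay between -0.23 and 0.67 and GA3ox2 between -0.67 and 0.34. Each of the intervals given for GA20ox2 and GA20ox3 reaches past a 2-fold difference. As the FR result of GA20ox2 was known when the family was chosen, its values here are a description.

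Time of day was compared in internodes as 6 and 30 h against 24 and 48 h, which are the same clock times a day apart. Libraries at 6 and 30 h also had fewer hours of treatment on average, so clock time and hours of treatment were mixed here. GA20ox2 was higher at 6 and 30 h, by a log2 difference of 1.15 ± 0.33 in Moneymaker (2.22-fold, limma adjusted p = 0.012) and of 2.11 ± 0.36 in M82 (4.32-fold, limma adjusted p = 7.1e-06). With edgeR on whole reads the Moneymaker difference was 1.14 with an adjusted p of 0.065. In these comparisons 9.87% and 9.09% of all genes were called, and 1 of the 4 tested members. The M82 difference varied with the FR libraries at 24 h: it was 1.45 (limma adjusted p = 0.0022) without the library at 0 and 2.77 (limma adjusted p = 2.3e-09) without the other. GA20ox1 differed by 0.07 ± 0.39 and 0.06 ± 0.43, and GA20ox3 by 0.06 ± 0.35 and -0.93 ± 0.38, in Moneymaker and M82, and neither was called with limma in the main fit. GA20ox3 passed in M82 in 1 of the 9 alternatives (DESeq2 adjusted p = 0.048). The GA20ox2 means were higher at 6 than at 24 h, and at 30 than at 48 h, in both lights. At 30 and 48 h the ranges of mean ± SD met in all but M82 FR. Under WL the group means at 6 and 24 h were 3.43 ± 0.236 (SD, n = 2) and 0.542 ± 0.706 (SD, n = 3) in Moneymaker and 4.66 ± 2.52 (SD, n = 4) and 0.352 ± 0.0497 (SD, n = 2) in M82. Under FR they were 63.1 ± 7.32 (SD, n = 5) and 20.6 ± 6.07 (SD, n = 5) in Moneymaker, and 98.8 ± 15.7 (SD, n = 3) and 19.0 ± 26.9 (SD, n = 2) in M82. At 30 and 48 h the WL means were 3.31 ± 2.50 and 1.97 ± 3.60 (SD, n = 4 each) in Moneymaker. In M82 WL they were 7.10 ± 10.8 (SD, n = 5) and 0.536 ± 0.484 (SD, n = 4). The FR means were 26.6 ± 2.90 (SD, n = 3) and 20.1 ± 4.32 (SD, n = 6) in Moneymaker. In M82 FR they were 37.1 ± 3.11 and 19.9 ± 4.04 (SD, n = 3 each). FR libraries at 24 and 30 h overlapped in both cultivars. The FR difference of GA20ox2 changed between the times of day by -0.28 (95% interval -1.59 to 1.03) in Moneymaker and by 0.65 (95% interval -0.80 to 2.09) in M82. Neither was called, and these changes are a description. The M82 change turned sign: it ran from -2.03 to 1.05 over the 9 alternatives and from -0.68 to 1.97 leaving out each library.

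Within FR, GA20ox2 was also lower at 30 h than at 6 h, a comparison chosen after its values were seen. The mean went from 63.1 ± 7.32 (SD, n = 5) to 26.6 ± 2.90 (SD, n = 3) in Moneymaker and from 98.8 ± 15.7 to 37.1 ± 3.11 (SD, n = 3 each) in M82. No library at 30 h reached the lowest at 6 h, as for 1.62% of all genes in Moneymaker and 9.18% in M82. The log2 differences were -1.22 ± 0.64 (limma adjusted p = 0.75) and -1.38 ± 0.72 (limma adjusted p = 0.43), and no member passed with limma, edgeR or DESeq2. As the comparison was chosen from these GA20ox2 values, their p-values cannot test it, and the values are a description. Here 0.0105% and 0.0210% of all genes were called. At an unadjusted p below 0.05 there were 0 members in either cultivar. The other tested members differed by -0.40 to 1.25 in Moneymaker and by -1.15 to -0.73 in M82.

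GA3ox2, which converts precursors to active gibberellin, had the highest mean of the 6 members (31.0 scaled reads) and reads in 85 of 86 libraries. In Moneymaker internodes its FR libraries ran from 13.3 to 73.6 and its WL libraries from 7.64 to 29.9, so that the lights overlapped. Between lights its log2 difference was 0.67 ± 0.30 in Moneymaker internodes (limma adjusted p = 0.32) and 0.28 ± 0.43 in Moneymaker pith (limma adjusted p = 0.94). In M82 it was -0.00 ± 0.33 in internodes and 0.07 ± 0.45 in pith, with 95% intervals from -0.66 to 0.66 and from -0.83 to 0.98. The M82 pith value was -0.62 (limma adjusted p = 0.27) without the WL library at 30 h that had 0 reads of GA3ox2, -0.49 with edgeR, -0.53 with DESeq2 and -0.78 without all 12 libraries at odds with their labels, and none of these passed. The lights were apart in 2 of 12 comparisons, FR above WL in Moneymaker pith at 48 h and FR below WL in M82 internodes at 30 h. That is 1 of 12 in each direction, near the 4.62% and 4.98% over all genes.

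In that Moneymaker pith at 48 h, GA3ox2 had 63.3, 71.1, 89.1 and 71.0 scaled reads under FR and 50.8, 46.6 and 25.0 under WL. In M82 internodes at 30 h it had 8.48, 9.26 and 13.6 under FR and 19.0, 17.8, 16.0, 25.2 and 19.8 under WL. These single-time log2 differences were 0.89 ± 0.61 and -0.85 ± 0.59.

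Among the 24 group means of GA3ox2, the 3 highest were pith at 48 h: 73.6 ± 10.9 (SD, n = 4, Moneymaker FR), 59.1 ± 23.2 (SD, n = 5, M82 WL) and 56.5 ± 14.3 (SD, n = 3, M82 FR). The lowest were M82 FR internodes at 30 h, 10.5 ± 2.79 (SD, n = 3), and Moneymaker WL internodes at 6 h, 11.2 ± 4.97 (SD, n = 2). Neighbours in this order did not differ beyond their spread.

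In internodes GA3ox2 stood lower at 6 and 30 h than at 24 and 48 h, the reverse of GA20ox2, by a log2 difference of -0.73 ± 0.30 in Moneymaker (limma adjusted p = 0.12) and -0.95 ± 0.33 in M82 (limma adjusted p = 0.055). It did not pass in the main test. It passed in Moneymaker with edgeR (adjusted p = 0.036) and DESeq2 (adjusted p = 0.017) on whole reads, and in M82 with edgeR (adjusted p = 0.0034) and DESeq2 (adjusted p = 0.0011). Of the 9 alternatives it passed in 4 in Moneymaker and in 5 in M82, among them limma on only the groups compared.

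Pith at 48 h was compared with pith at 30 h after the values were seen. These times differ in clock time as well as in hours of treatment, which cannot be told apart in pith. GA3ox2 in Moneymaker pith was at 15.3, 6.63, 32.3 and 28.4 scaled reads under FR and at 44.9, 8.44 and 29.2 under WL at 30 h. In M82 pith it was at 18.1 and 19.5 under FR and at 0, 55.4, 36.6 and 44.1 under WL at 30 h, against 40.8, 68.9 and 59.7 under FR and 47.7, 97.6, 51.2, 62.0 and 37.3 under WL at 48 h. FR libraries at 30 h were below all FR libraries at 48 h in both cultivars, as for 3.76% of all genes in Moneymaker and 14.4% in M82. WL libraries at the 2 times overlapped, and the difference between the lights in this was not tested. The M82 WL libraries at 62.0 and 37.3 were at odds with their time label.

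GA3ox2 was higher at 48 h by 1.38 ± 0.43 in Moneymaker pith (2.59-fold, limma adjusted p = 0.035) and by 1.60 ± 0.45 in M82 pith (3.03-fold, limma adjusted p = 0.025). As these comparisons were chosen after the values were seen, their p-values cannot test them, and the values are a description. In these comparisons 7.32% and 4.14% of all genes were called, and GA3ox2 was the only member called of 4 tested. These calls were not stable: leaving out each of 14 libraries in turn, the Moneymaker call was lost in 7 cases (differences of 1.05 to 1.38, adjusted p up to 0.21) and the M82 call in 5 (0.91 to 1.63, adjusted p up to 0.13). The M82 difference was 0.91 (limma adjusted p = 0.092) leaving out WL replicate number 1 at 30 h, which had 0 reads of GA3ox2 and was at odds with its cultivar label. With the replicate number as a block it was 1.41 (limma adjusted p = 0.075), fitted on only the groups compared its adjusted p was 0.50, with edgeR 0.054, and without the 12 libraries at odds with their labels 0.071. The Moneymaker call was lost with a pseudocount of 0.25 (limma adjusted p = 0.10). GA20ox1, GA20ox2 and GA20ox3 differed by 1.09 ± 0.57, -0.63 ± 0.48 and 1.28 ± 0.50 in Moneymaker pith, and by 0.26 ± 0.60, -0.48 ± 0.50 and 0.26 ± 0.52 in M82 pith.

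**Figure D4:**
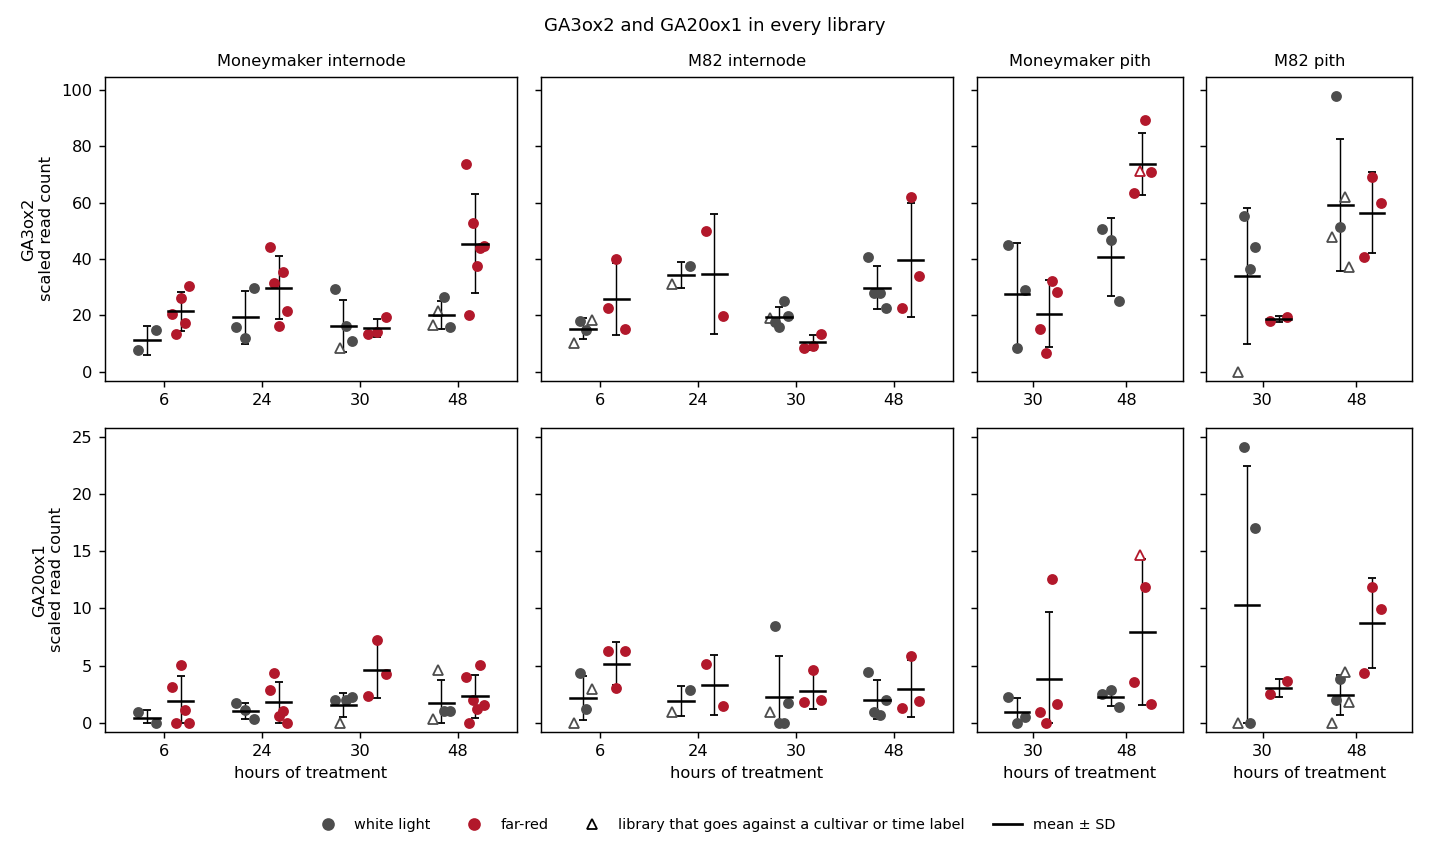
Scaled reads of GA3ox2 (upper row) and GA20ox1 (lower row) in all 86 libraries by hours of treatment; black bars are the mean ± SD of a group (lower ends cut at 0), and open triangles are the 12 libraries at odds with their labels. The highest GA3ox2 values are in pith at 48 h, up to 97.6, and the lights overlap in most panels for both genes.

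Pith was compared with internodes at 30 and 48 h. In Moneymaker 1.12% and in M82 2.73% of all genes were called, and 0 of the 4 tested members in either cultivar with limma. The log2 difference of GA20ox1 was 0.11 ± 0.39 in Moneymaker and 0.68 ± 0.41 in M82, and that of GA20ox2 was -0.33 ± 0.32 and -0.21 ± 0.34. GA20ox3 was 0.32 ± 0.34 higher in Moneymaker pith and 0.72 ± 0.36 higher in M82 pith on the log2 scale (limma adjusted p = 0.82 and 0.44). GA3ox2 was 0.62 ± 0.30 and 0.53 ± 0.31 higher (limma adjusted p = 0.42 and 0.60). At an unadjusted p below 0.05 there was 1 member in each cultivar, GA3ox2 in Moneymaker and GA20ox3 in M82, and over all 19029 genes there were 2053 and 2084. DESeq2 called 0 in Moneymaker and 1 in M82, which was GA3ox2 (0.79, adjusted p = 0.034), and edgeR called 0 in both. Without the M82 WL pith library with 0 reads of GA3ox2, its M82 difference was 0.87 (limma adjusted p = 0.0075), and without all 12 libraries at odds with their labels it was 0.95 (limma adjusted p = 0.0095). In whole tissue, fewer cells of a type and less RNA per cell cannot be told apart.

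The cultivars were compared over both lights. Of all genes, 0.977% were called in internodes and 0.993% in pith, and 0 of the 4 tested members with limma, edgeR or DESeq2, nor any at an unadjusted p below 0.05. The log2 difference of M82 from Moneymaker in internodes was -0.07 (95% interval -0.56 to 0.42) for GA20ox2 and -0.00 (95% interval -0.51 to 0.51) for GA20ox3. It was 0.23 (95% interval -0.21 to 0.68) for GA3ox2 and 0.44 (95% interval -0.15 to 1.02) for GA20ox1. In pith the differences were 0.22 for GA20ox2, -0.15 for GA20ox3, -0.06 for GA3ox2 and 0.54 for GA20ox1. Among the libraries compared, 9 were at odds with their cultivar label, which mixes the cultivars here. Over the alternatives, which include leaving these libraries out, differences ran from -0.17 to 0.72 in internodes and from -0.27 to 0.92 in pith. No tested member was called in any alternative, nor for the FR differences between cultivars.

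GA20ox1, a 20-oxidase, was at a mean of 3.21 scaled reads, with reads in 72 libraries. Its levels were low and uneven. In M82 WL pith at 30 h the libraries were at 0, 24.1, 0 and 17, and the mean of that group, 10.3 ± 12.2 (SD, n = 4), was the highest of the 24. In Moneymaker internodes at 30 h it was at 2.30, 7.24 and 4.27 under FR and at 2.00, 0, 1.98 and 2.21 under WL, the only comparison of 12 in which the lights did not overlap (4.62% over all genes). The lowest FR library (2.30, 8 reads) and the highest WL library (2.21, 4 reads) nearly met there. The WL library at 0 was at odds with its cultivar label, and 3 reads in it would be worth 3.60.

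Under FR the log2 difference of GA20ox1 was 0.59 ± 0.39 in Moneymaker internodes, 0.95 ± 0.57 in Moneymaker pith, 0.70 ± 0.43 in M82 internodes and 0.72 ± 0.60 in M82 pith. The limma adjusted p was 0.56, 0.74, 0.76 and 0.50, so that none passed. In M82 pith the difference was 0.01 with edgeR, -0.02 with DESeq2 and 0.16 without the 12 libraries at odds with their labels. The 95% intervals reached from -0.19 to 1.38, from -0.19 to 2.08, from -0.17 to 1.56 and from -0.48 to 1.91.

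GA3ox1, the other 3-oxidase, and GA20ox4 were below the minimum mean of 1 scaled read and were not among the genes tested. GA3ox1 had 371 reads over all libraries, a mean of 0.952 scaled reads and 36 libraries at 0. In Moneymaker internodes at 48 h it was at 0 in all 4 WL libraries, while the FR libraries ran from 0 to 4.24 with a median of 2.38. In M82 internodes at 48 h it was at 3.02, 2.75 and 1.49 under FR and at 0, 0.952, 0 and 0 under WL, the only comparison of 12 without overlap (4.62% over all genes tested). The group means of GA3ox1 in the order of their levels began with the 4 FR groups at 48 h: 3.30 ± 3.33 (SD, n = 4) and 2.54 ± 0.904 (SD, n = 3) in Moneymaker and M82 pith, and 2.42 ± 0.816 (SD, n = 3) and 2.12 ± 1.48 (SD, n = 6) in M82 and Moneymaker internodes. These means did not differ beyond their spread. In a fit of all genes without a minimum, the FR difference of GA3ox1 was 0.55 ± 0.24 in Moneymaker internodes and 0.65 ± 0.35 in Moneymaker pith. It was 0.42 ± 0.27 in M82 internodes and 0.56 ± 0.37 in M82 pith, and none passed (limma adjusted p = 0.33 to 0.77). At 48 h alone the FR differences of GA3ox1 ran from 1.01 to 1.50, and at the other times from -0.75 to 0.99. None of these passed either.

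GA20ox4 had 83 reads in all, at most 8 in 1 library, and 53 of 86 libraries at 0. Its highest value was 2.84 scaled reads, in a Moneymaker FR internode at 6 h, where the other libraries were at 0.332, 0, 1.27 and 0.356. Its lights overlapped in all 12 comparisons. In the fit without a minimum its log2 difference under FR was 0.10 ± 0.17 in Moneymaker internodes, -0.30 ± 0.25 in Moneymaker pith, -0.11 ± 0.19 in M82 internodes and -0.43 ± 0.26 in M82 pith. None passed limma (adjusted p = 0.36 to 0.97), and differences of the size of these errors were not detectable at this depth. Neither GA20ox4 nor GA3ox1 passed limma for tissue, time, cultivar or any comparison of FR differences in that fit, and their largest log2 difference between tissues was 0.38 (GA3ox1 in Moneymaker, adjusted p = 0.65).

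**Figure D5:**
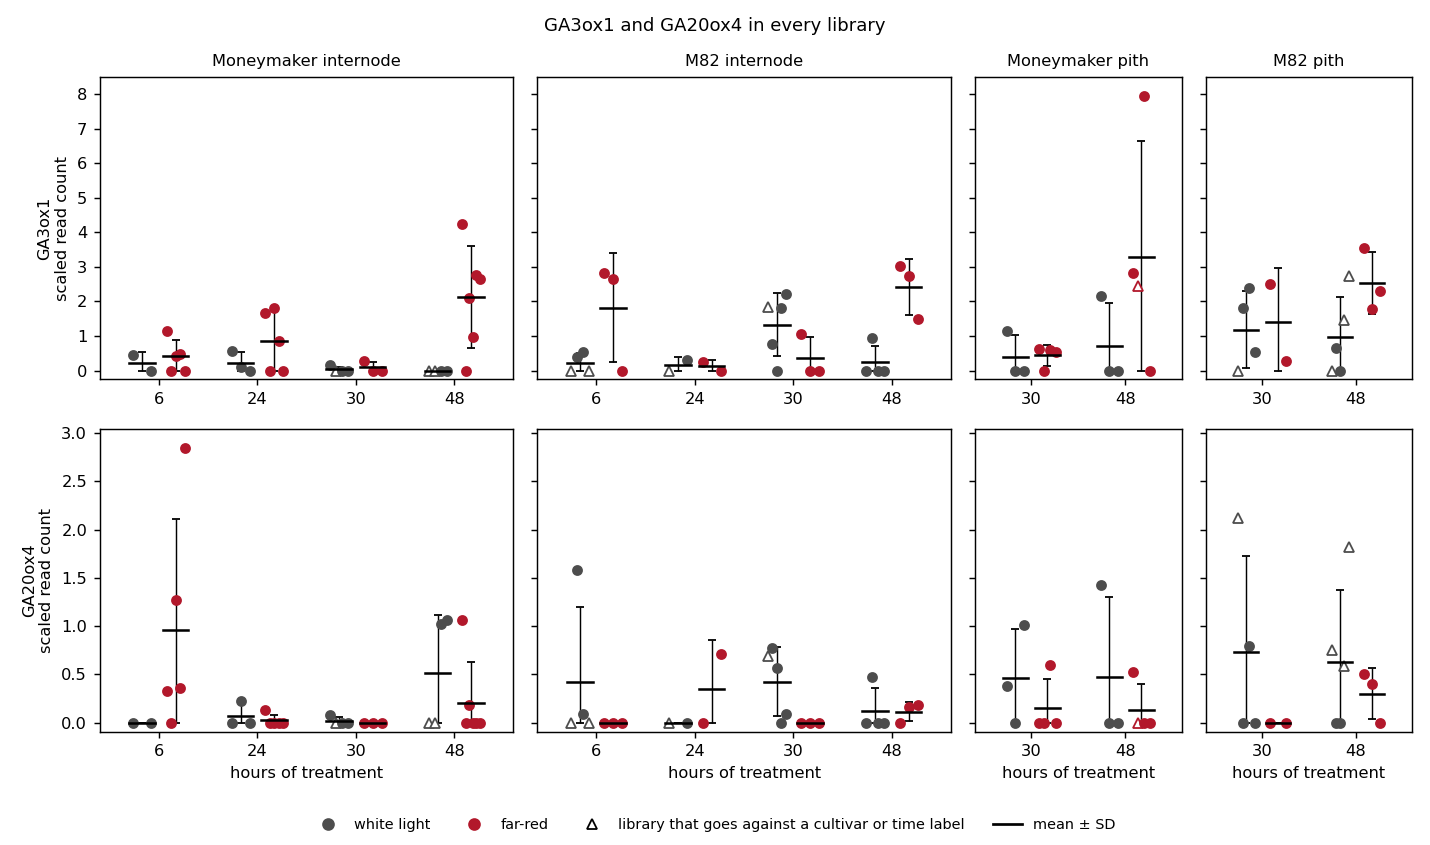
Scaled reads of GA3ox1 (upper row) and GA20ox4 (lower row), the members below the minimum mean of 1, in all 86 libraries by hours of treatment; black bars are the mean ± SD of a group (lower ends cut at 0), and open triangles are the 12 libraries at odds with their labels. GA3ox1 reaches 7.94 in Moneymaker FR pith at 48 h, and GA20ox4 lies at 0 in 53 libraries.

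Other genes of the gibberellin pathway were taken from a list of 17 identifiers: 2-oxidases, early synthesis steps, and receptors with DELLA and GAST1. Of these, 14 were in the table and 10 passed the minimum mean. Under FR, 0 rose and 2 fell in Moneymaker internodes, where 1.59% of all genes were called, with a median log2 difference of -0.45 over the 10 against 0.007 over all genes tested. In Moneymaker pith and in M82 internodes 0 of 10 were called (0.504% and 0.715% of all genes), with medians of -0.39 in both against -0.038 and -0.013 over all genes. In M82 pith 2 rose and 1 fell, where 3.71% of all genes were called, with a median of -0.00 against 0.013. The 2 that fell in Moneymaker internodes were both on the list of receptors, DELLA and GAST1, and 0 of the 4 early synthesis genes tested were called there. Only 1 of the 6 listed 2-oxidases reached the minimum mean. It was lower at 6 and 30 h by -1.55 ± 0.30 in Moneymaker (limma adjusted p = 6.6e-05) and -1.67 ± 0.33 in M82 (limma adjusted p = 9.7e-05), the reverse of GA20ox2, and it was not called under FR in any of the 4 comparisons. The only gene called among the comparisons of FR differences was Solyc02g089350, of the list of receptors, DELLA and GAST1. Its FR difference was higher at 6 and 30 h in M82 internodes by 2.98 ± 0.51 (limma adjusted p = 0.0036). Its dependence on single libraries was not computed.

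Over the 24 group means, the genes most like GA20ox2 were Solyc04g005800 (r = 0.940), Solyc05g008240 (r = 0.920) and Solyc06g060830 (r = 0.915). Those most like GA3ox2 were Solyc09g066280 (r = 0.897), Solyc01g163220 (r = 0.856) and Solyc06g069030 (r = 0.856). These are descriptions over groups that share cultivars, lights and times.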

How the data were processed

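PolyA RNA was turned into random-primed libraries, per the labels' protocols. The submitters' processing notes name STAR, featureCounts, FastQC and Trim Galore without versions. Genome build, annotation and strandedness were not given in the sources used here. Deposited values are a signal: read counts that the authors multiplied by a factor for each library. Whole reads could be recovered in all 86 libraries (100% of nonzero values below 2000 reads within 0.02 of a read). Because the values are not raw counts, they were tested on log2(value + 1), with limma 3.58.1 in R 4.3.3 (trend, robust), for 19029 genes with a mean of at least 1, in a fit of 24 group means over 86 libraries. P-values were Benjamini-Hochberg adjusted over all genes and called below 0.05. Differences over several times are means over those times. Fold changes understate those of low genes. The interval of a difference is a 95% interval of the fit.

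Alternatives were a pseudocount of 0.25, no minimum, a minimum mean of 5, TMM factors, edgeR 4.0.16 (quasi-likelihood) and DESeq2 1.42.0 on whole reads, only the groups compared, the replicate number as a block, leaving out each library, and leaving out the 12 libraries at odds with their labels. Groups come from titles; 19 Moneymaker WL libraries carry an FR treatment field against their titles. By the series design, plants with the same replicate number were grown in the same batch, which pairs samples. Some Moneymaker internode libraries at 48 h carry a number in their sample code unlike their replicate number, and the replicate number was used. The mean correlation of residuals between lights was 0.05 for equal numbers (26 pairs) and -0.0086 for unequal ones. Across tissues or times of the same cultivar and light it was 0.12 (142 pairs) and -0.026. No libraries of a group agreed within sampling noise (lowest chi-square per gene 2.00, between Moneymaker FR internode libraries at 48 h with such codes).

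Members, pathway list and tests were chosen with earlier results of these data known. The rule was to name all 6 members in every comparison, along with the 3 genes most correlated with GA20ox2 and with the member of highest mean. Outside the light comparisons, members not called are given by a range in places, and GA3ox1 and GA20ox4, which were not tested, jointly. All 6 names matched RefSeq gene symbols (SLM_r2.1), with identifiers not paired there. Sequences of the members were not used here. Sharing of reads between similar family members cannot be seen in this table, nor can antisense reads.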

Additional observations from a re-analysis of the deposited data

Results flagged for a closer look

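Within groups of 4 to 10 libraries, the highest or lowest library was checked for its gap to the nearest other library, as a share of the group's range. Of 71 such checks 18 stood out at the 95% level, where chance gives about 1 in 20 for values without many zeros. Of the 18, 10 were in the low members GA20ox4 and GA3ox1, where most libraries of the group were at or near 0.

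GA20ox2 stood out at 26.4 scaled reads in the M82 WL internode at 30 h with replicate number 1, at 35.5 in the Moneymaker FR pith at 48 h with replicate number 3, and at 7.36 in the Moneymaker WL internode at 48 h with replicate number 1. All 3 libraries were at odds with the cultivar or time on their labels. GA20ox3 stood out low at 3.59 in the M82 WL internode at 6 h with replicate number 3, and high at 3.98 in the Moneymaker FR pith at 30 h with replicate number 3, where the other libraries were at 0. This Moneymaker library had the lowest depth of all, and its 3.98 was 3 reads.

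GA20ox1 stood out at 8.49 in the M82 WL internode at 30 h (replicate number 2), at 12.6 in the Moneymaker FR pith at 30 h (replicate number 4) and low, at 0, in the Moneymaker WL internode at 30 h (replicate number 3). GA3ox1 stood out at 0.952 in the M82 WL internode at 48 h (replicate number 2), at 0.154 in the Moneymaker WL internode at 30 h (replicate number 2) and low, at 0, in the Moneymaker FR pith at 30 h (replicate number 3). With 3 reads, the libraries low at 0 would stand at 3.60 (GA20ox1, Moneymaker WL) and 3.98 (GA3ox1, Moneymaker FR). Each is above every other value of its group, so these low values lie within counting error.

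GA20ox4 stood out high in 7 libraries, in groups where most other libraries were at 0. They were the M82 WL internode at 6 h (1.58, replicate number 2) and at 48 h (0.476, replicate number 2), and the Moneymaker WL internode at 30 h (0.0768, replicate number 2). The others were the Moneymaker FR internode at 24 h (0.129, replicate number 1) and at 48 h (1.06, replicate number 1), and the Moneymaker FR pith at 30 h (0.598, replicate number 4) and at 48 h (0.529, replicate number 1).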

How the results depend on the processing

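The calls of GA20ox3 under FR held in all 9 alternatives and all 4 comparisons (log2 differences from -4.23 to -1.49, limma, edgeR or DESeq2 adjusted p up to 0.044). GA20ox2 is left out of the counts under FR. There, leaving out each library gave 0 to 1 member called in Moneymaker pith and 1 in the other 3 comparisons. Pith against internode in M82 called 1 member with DESeq2 and 1 without the 12 libraries at odds with their labels, and 0 to 1 leaving out each library. For time of day, Moneymaker internodes called 2 with DESeq2, with only the groups compared and without the 12 libraries. M82 internodes called 2 with a minimum mean of 5, edgeR, only the groups compared and without the 12 libraries, 3 with DESeq2, and 1 to 2 leaving out each library. For 48 h against 30 h, Moneymaker pith called 0 with a pseudocount of 0.25 and 2 with DESeq2, and M82 pith called 0 with edgeR, only the groups compared, the replicate block and without the 12 libraries; leaving out each library gave 0 to 1 in both. The cause was not tested. The replicate block changed no other call of 80. Of 700 member values under alternatives, 44 uncalled ones changed sign and 0 called ones did. Depth limits GA3ox1 and GA20ox4, whose 371 and 83 reads give few reads a library.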
